A study of Homo sapiens with 5 samples.

Results

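The MHC class II genes examined here are 10 genes of the class II antigen presentation route, chosen by name: HLA-DRA, HLA-DRB1, HLA-DPA1, HLA-DPB1, HLA-DQA1, HLA-DQB1, HLA-DMA, HLA-DMB, CD74 and CIITA. Of these, 8 had an entry under their own name among the 37181 gene entries of the deposited table, while HLA-DMB and CIITA did not. Their mRNA was compared between gefitinib-resistant HCC827/GR cells (replicates 1, 2 and 3) and gefitinib-sensitive parental HCC827 cells (replicates 2 and 3). HCC827 is an established human lung adenocarcinoma cell line, and according to the labels the cells of both groups carry a deletion in exon 19 of EGFR. HCC827/GR cells were raised from the parental line under gradually increasing gefitinib for more than 6 months. The labels do not say whether the resistant line was cloned, whether gefitinib was present at harvest or whether the replicates came from separate cultures, so a p-value measures only the spread between these 5 libraries.

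MHC class II molecules are surface heterodimers of an alpha and a beta chain (HLA-DR, HLA-DP and HLA-DQ) that present peptides from endosomes to CD4+ T cells. Dendritic cells, macrophages and B cells express them constitutively, as do type II alveolar cells of the lung, and many other cells express them after exposure to interferon gamma. The invariant chain CD74 guides newly made heterodimers to endosomes, and HLA-DM exchanges its remnant for peptide. The genes are switched on together by the coactivator CIITA, which has no DNA-binding role of its own and is recruited by RFX, CREB and NF-Y proteins that sit on the X and Y boxes of class II promoters.

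Class II mRNA was found at trace levels in both cell lines. FPKM is a level per transcript length and per library size, and only the HLA-DMA entry passed 1 FPKM in any library, while the other 7 members stayed below 1 FPKM in all 5. Summed over the 8 members, the level was 1.81 and 2.05 FPKM in the HCC827 libraries and ran from 1.56 to 1.79 FPKM in the HCC827/GR libraries. Within these trace levels HLA-DRA was lower in every HCC827/GR library, HLA-DRB1 showed overlapping values, and the joined HLA-DMA and HLA-DMB entry was higher in every HCC827/GR library. Only HLA-DRB1 and HLA-DMA reached the level needed for the main test across all genes, and neither passed it. HLA-DRA was not in that test. When entries of any level above 0 were fitted, 0 of the 8 members were called.

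**Figure D1:**
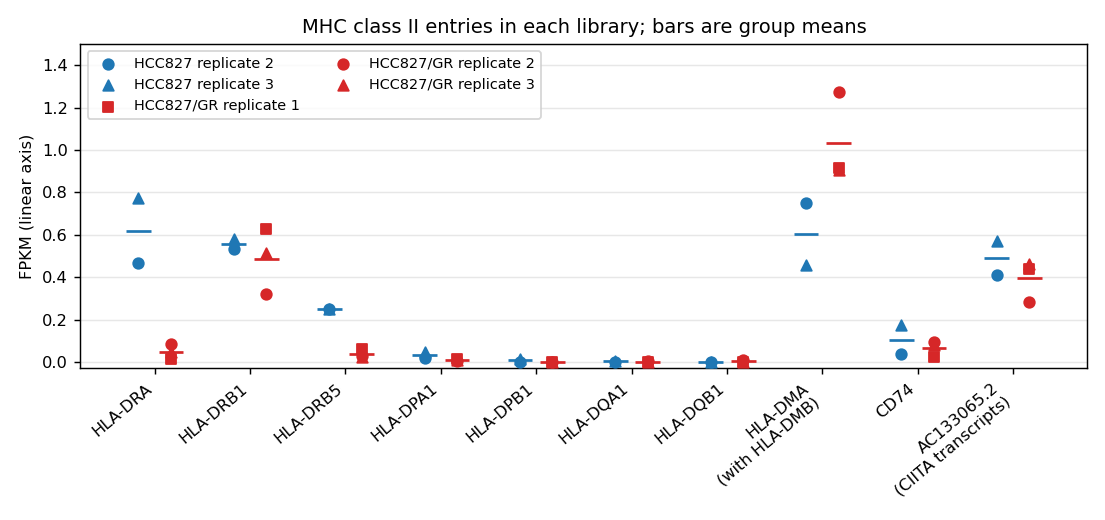
FPKM of the MHC class II entries (linear axis) in 2 HCC827 libraries (blue) and 3 HCC827/GR libraries (red), with HLA-DRB5 and the entry that holds the CIITA transcripts. Each symbol is a library and each bar a group mean. HLA-DRA and HLA-DRB5 lie lower in the resistant cells, HLA-DRB1 overlaps, and HLA-DMA lies higher, where the highest value is 1.27 FPKM.

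FPKM values carry no read counts, so the depth of each library and the counting error behind a value such as 0.05 FPKM are unknown. Between 8896 and 9803 entries were listed at 0 in each library. Across the 16189 entries tested, pairs of libraries from a single line correlated at 0.913 to 0.927 (Pearson's r of log2(FPKM + 1), across genes) and pairs from the 2 lines at 0.851 to 0.873. In bulk RNA, fewer cells expressing a gene and less RNA per cell cannot be told apart.

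The test was limma on log2(FPKM + 1), with a trend of variance on level, two-sided, with Benjamini-Hochberg adjustment over all entries that reached a mean of 0.5 FPKM over the 5 libraries. Only 2 of the 8 members, HLA-DRB1 and HLA-DMA, reached this mean, and the other 6 lay under it. Of the 2 tested, 0 were called higher and 0 lower in HCC827/GR cells at an adjusted p under 0.05, and 0 had an unadjusted p under 0.05. The ordinary linear model with Ballgown's covariate also called 0. It does not share the spread across genes, and with 5 libraries it can call little. It also called 0 of the epithelial markers given below, of which 5 fell in the main test, so its 0 adds no support. Among all entries tested, 5.26% were called higher and 5.71% lower. When every entry above 0 was fitted with no filter on level, 0 of the 8 members were called, 1 (HLA-DRA) had an unadjusted p under 0.05, and the share called among the 36011 entries was 1.40% higher and 2.10% lower.

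HLA-DRA encodes the alpha chain shared by all HLA-DR heterodimers and lies on chromosome 6 of GRCh38 from 32439842 to 32445046 on the plus strand. Its level was 0.466 and 0.772 FPKM in HCC827 replicates 2 and 3, and 0.0151, 0.0847 and 0.0472 FPKM in HCC827/GR replicates 1, 2 and 3. The lowest HCC827 library was 5.49 times the highest HCC827/GR library, so the groups did not overlap. The means were 0.619 ± 0.216 FPKM (SD, n = 2) and 0.0490 ± 0.0348 FPKM (SD, n = 3), and the ratio of the mean FPKM was 12.6 in favour of the parental cells.

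The fitted difference for HLA-DRA on the log2(FPKM + 1) scale was -0.62 (standard error 0.11), a scale on which changes of low genes are understated. With no filter, limma gave an unadjusted p of 0.00323 and an adjusted p = 0.0656. With the filter lowered to a mean of 0.1 FPKM, a choice made after the values were seen, the adjusted p was 0.0565. Leaving out HCC827/GR replicate 1, 2 or 3 gave 0.215, 0.182 or 0.193. Without HCC827 replicate 2 or 3 it was 0.0208 or 0.0408, but such a fit has 1 HCC827 library, takes its spread from the HCC827/GR libraries and assumes that HCC827 varies like them, here and for every gene below. The exact permutation test of HLA-DRA over the 5 libraries (two-sided) gave p = 0.1, the smallest that 3 libraries against 2 allow. Among the 4720 entries with a mean between 0.1 and 0.5 FPKM and a value above 0 in every library, where the median ratio of HCC827 to HCC827/GR was 1.08, the ratio of HLA-DRA ranked 39 from the highest. This window was set after the values were seen, and it leaves out entries listed at 0 in HCC827/GR libraries. The rank therefore only describes HLA-DRA and gives no support to a difference.

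HLA-DRB1 encodes the main beta chain that pairs with HLA-DRA, on chromosome 6 from 32578769 to 32589848 on the minus strand. It had 0.532 and 0.581 FPKM in the HCC827 libraries and 0.625, 0.321 and 0.512 FPKM in HCC827/GR replicates 1, 2 and 3. The highest and the lowest value were both from HCC827/GR libraries. limma gave a log2 fold change of -0.07 with a standard error of 0.16 and an adjusted p = 0.820, and over all alternatives the value ran from -0.20 to 0.01. The level of HLA-DRB1 divided by that of HLA-DRA was 1.14 and 0.753 in the HCC827 libraries and 41.3, 3.79 and 10.9 in HCC827/GR replicates 1, 2 and 3. The alpha and beta chain genes of HLA-DR thus stood at similar levels in the parental cells and apart in each resistant library. The ratios of the resistant libraries divide by HLA-DRA values of at most 0.0847 FPKM, whose counting error is unknown. They restate the difference in HLA-DRA, which was not called with all 5 libraries, and are no separate result.

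HLA-DRB5 is a further HLA-DR beta chain gene, which only some human haplotypes carry, and it belongs to a list of 9 other class II genes of which 3 had an entry. It lies on chromosome 6 from 32517343 to 32530287. Its level was 0.251 and 0.250 FPKM in the HCC827 libraries and 0.0615, 0.0293 and 0.0245 FPKM in HCC827/GR replicates 1, 2 and 3, with no overlap and a ratio of the means of 6.52. It lay under the filter, and with no filter limma gave a log2 fold change of -0.27 with a standard error of 0.034 and an adjusted p = 0.0358. That call was lost with a filter at a mean of 0.1 FPKM (adjusted p = 0.126) and without HCC827/GR replicate 1, 2 or 3 (0.125, 0.128 or 0.110), and over 9 alternatives the adjusted p ran from 0.0358 to 0.350. HLA-DRB1 and HLA-DRB5 are near-identical copies, reads of which the authors' estimation could have divided in either way, and whether HCC827 carries HLA-DRB5 was not tested. The other entries of the list, HLA-DQA2 and HLA-DOA, stayed below 0.1 FPKM in all libraries.

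The promoters of class II genes are shown because the members are known for shared control through an X box and a Y box, and because HLA-DRB1 overlapped between the cell lines whereas HLA-DRB5 did not. RefSeq promoter windows (GRCh38.p14, 250 bases before to 50 after the gene start) were found for 8 of the 10 members and for HLA-DRB5. There was no window for HLA-DRA or CIITA. The letters searched on both strands were AGNNACNGA, a core of the X box, and ATTGG, the Y box, which do not overlap each other in the sequences shown. The X core was in 15.3% and the Y box in 34.6% of all 35116 promoter windows. An X core followed on the same strand by a Y box, with 20 to 40 bases from start to start, was in 0.296% of all windows and in those of 4 members (HLA-DRB1, HLA-DQA1, HLA-DQB1 and HLA-DMA) as well as HLA-DRB5. The letters of the X core and this distance were set after the sequences were seen, so the shares are no test of the members. In the stretches below, read 5′ to 3′ on the strand of the gene, capitals mark the X core and then the Y box.
HLA-DRB1 (chr6:32589865-32589952, minus strand): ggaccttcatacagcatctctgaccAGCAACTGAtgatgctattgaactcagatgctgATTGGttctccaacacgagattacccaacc
HLA-DRB5 (chr6:32530348-32530435, minus strand): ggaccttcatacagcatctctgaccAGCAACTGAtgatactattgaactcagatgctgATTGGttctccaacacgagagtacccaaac
HLA-DQB1 (chr6:32666716-32666803, minus strand): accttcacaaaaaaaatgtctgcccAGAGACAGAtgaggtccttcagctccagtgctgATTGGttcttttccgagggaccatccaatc
HLA-DQA1 (chr6:32637279-32637367, plus strand): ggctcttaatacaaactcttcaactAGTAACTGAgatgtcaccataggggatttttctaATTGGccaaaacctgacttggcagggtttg
HLA-DMA (chr6:32953147-32953235, minus strand): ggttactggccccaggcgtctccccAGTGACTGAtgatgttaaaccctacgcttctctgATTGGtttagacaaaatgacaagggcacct

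The distance from the start of the X core to the start of the Y box was 33 bases in HLA-DRB1, HLA-DRB5 and HLA-DQB1 and 34 bases in HLA-DQA1 and HLA-DMA. The stretches of HLA-DRB1 and HLA-DRB5 differed at 3 of 88 bases, and their windows were identical at 89.1% of 256 aligned bases. These are reference sequences, and the alleles of HCC827 were not examined. A match describes letters in a window and does not show that a factor was bound.

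The HLA-DP and HLA-DQ chain genes had the lowest values. HLA-DPA1, the alpha chain of HLA-DP on chromosome 6 from 33064569 to 33080775, had 0.0195 and 0.0476 FPKM in the HCC827 libraries and 0.0135, 0.00642 and 0.0107 FPKM in HCC827/GR replicates 1, 2 and 3. Every HCC827/GR library was below both HCC827 libraries, but the fitted difference of -0.03 (standard error 0.017) had an adjusted p = 0.433 with no filter. HLA-DPB1, the HLA-DP beta chain, was listed at 0 in 4 libraries and had 0.0151 FPKM in HCC827 replicate 3.

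HLA-DQA1, the HLA-DQ alpha chain, had 0.00607 FPKM in HCC827 replicate 3 and 0.00266 FPKM in HCC827/GR replicate 2, with 0 listed in the remaining libraries. HLA-DQB1, its beta chain, had 0.0101 FPKM in HCC827/GR replicate 2 and was listed at 0 in the other 4. No fold change is given for these genes, since an entry listed at 0 may be a failed estimate and no depth is known. Not every annotated transcript was in these entries: that of HLA-DQB1 held 2 of 9 transcripts of GENCODE release 29, HLA-DPB1 2 of 8, HLA-DPA1 3 of 7 and HLA-DQA1 1 of 7.

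CD74, the invariant chain, lies outside the MHC on chromosome 5 from 150401637 to 150412929. Its level was 0.0373 and 0.174 FPKM in the HCC827 libraries and 0.0236, 0.0921 and 0.0823 FPKM in HCC827/GR replicates 1, 2 and 3. The groups overlapped, with HCC827 replicate 2 among the HCC827/GR values, and with no filter the difference was -0.05 (standard error 0.066, adjusted p = 0.703 from limma). Its mean level was above that of 19.2% of the coding entries with any value above 0, against 26.9% for HLA-DRA and 31.8% for HLA-DRB1.

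The HLA-DMA entry had the highest mean of the members over all 5 libraries, although HLA-DRA had the higher mean in HCC827. It is an assembled locus that joins 8 transcripts of HLA-DMA (chromosome 6, 32948613 to 32969094) with all 6 annotated transcripts of HLA-DMB (32934629 to 32941070) and with the gene AL645941.2, so the alpha and beta chains of HLA-DM cannot be told apart here. Its level was 0.752 and 0.459 FPKM in the HCC827 libraries and 0.915, 1.27 and 0.905 FPKM in HCC827/GR replicates 1, 2 and 3. Every HCC827/GR library was above both HCC827 libraries, and the ratio of the means was 1.70. Its log2 fold change of 0.34 (standard error 0.16) had an unadjusted p of 0.0895 and an adjusted p = 0.259 from limma, which over 22 alternatives ran from 0.184 to 0.652. The difference was therefore not separated from the spread between libraries by this test.

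The coding genes whose profile over the 5 libraries lay nearest to that of the HLA-DMA entry were UBTD2, TM2D1, GGCX, BBS9 and SLC18B1, with Euclidean distances from 0.0379 to 0.0891 between centred log2(FPKM + 1) values. Their levels were between 2.47 and 8.88 FPKM and their log2 fold changes between 0.34 and 0.35. None of these 5 had an adjusted p under 0.05.

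CIITA, the class II coactivator on chromosome 16 from 10866222 to 10943021, had no entry of its own name. An assembled locus named AC133065.2 in the table held 12 of its 18 annotated transcripts and no transcript of another GENCODE gene. That entry had 0.410 and 0.571 FPKM in the HCC827 libraries and 0.440, 0.281 and 0.461 FPKM in HCC827/GR replicates 1, 2 and 3. The groups overlapped, and with no filter the difference was -0.10 (standard error 0.13, adjusted p = 0.722 from limma). It is given as the nearest measurement of CIITA and was not counted among the members.

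Taken by groups that did not overlap, 2 of the 8 members (HLA-DRA and HLA-DPA1) were lower in every HCC827/GR library, 1 (HLA-DMA) was higher, and 5 overlapped. Over all 36011 entries above 0, 18.7% were lower in this way and 15.1% higher. For a list of 8 genes, the members' counts lay near this background.

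The class II genes lie within a stretch of chromosome 6 in which most other coding genes were measured above 1 FPKM, 46 of 66 within 1000 kb of the start of HLA-DRA. Between the starts of HLA-DRA and HLA-DPB1, a span of 636.1 kb, the 5 other coding entries had mean levels from 2.97 to 15.2 FPKM. These were TAP1 and TAP2, which carry peptides to class I molecules, PSMB8 and PSMB9 of the immunoproteasome, and the chromatin reader BRD2. The TAP2 entry joins 3 annotated genes and those of PSMB9 and BRD2 join 2 each, so their levels are not those of single genes. The 10 class II entries of the region had mean levels from 0.00175 to 0.861 FPKM. Of the 13 tested genes in the list of class II region neighbours, 1 rose in HCC827/GR cells and 0 fell, and the median log2 fold change was 0.19 against 0.00 over all entries tested. Over those entries, 5.26% were called higher and 5.71% lower. The gene that rose was SLC39A7, a zinc transporter of the endoplasmic reticulum, with a log2 fold change of 0.52 and, by limma, a standard error of 0.093 and an adjusted p = 0.0357. It was called in 7 of 23 alternatives and lost whichever library was left out (adjusted p from 0.0740 to 0.111).

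**Figure D2:**
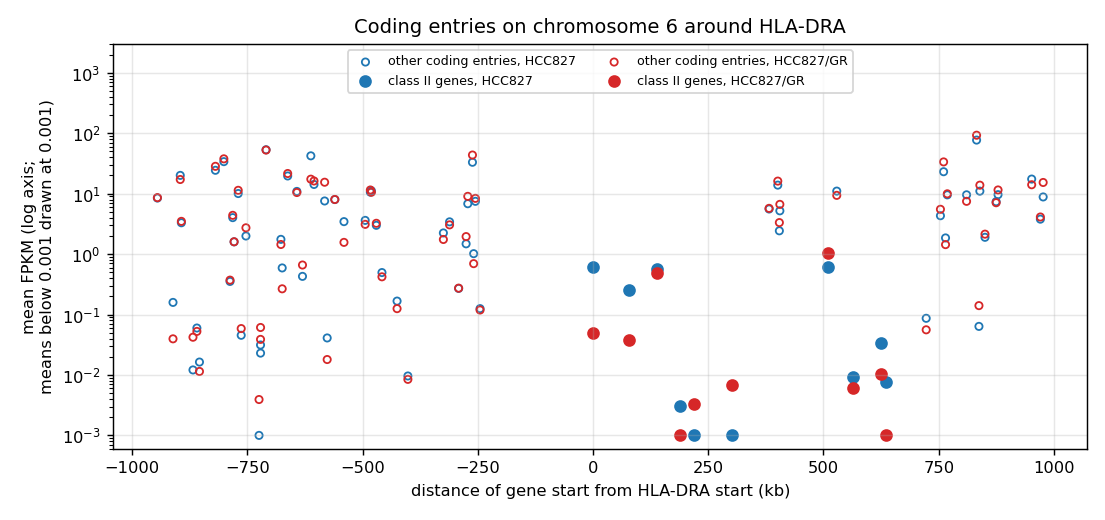
Mean FPKM (log axis) of coding entries within 1 Mb of the start of HLA-DRA on chromosome 6, against the distance of the gene start in kb. Filled points are class II genes and open points other genes, in blue for HCC827 and red for HCC827/GR, and means below 0.001 are drawn at 0.001. The 5 open pairs between HLA-DRA and HLA-DPB1 lie from 2.97 to 15.2 FPKM (means over all 5 libraries), above the class II genes among them.

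The proteins that assemble on class II promoters were expressed in both lines. Of 12 tested genes in the list of class II enhanceosome and chromatin partners, 0 rose and 0 fell by limma, and the median log2 fold change was 0.01. The shares over all entries tested were 5.26% higher and 5.71% lower. RFX5, the large subunit of the RFX complex, had 7.77 ± 2.04 FPKM (SD, n = 2) in HCC827 and 9.88 ± 2.34 FPKM (SD, n = 3) in HCC827/GR cells. RFXANK, its ankyrin repeat subunit, had 3.58 ± 0.140 and 4.64 ± 0.284 FPKM with no overlap and an adjusted p = 0.123, and 1 other subunit, RFXAP, had 1.66 ± 0.772 and 1.78 ± 0.668 FPKM. RFXANK was named after its values were seen, and with RFX5 and RFXAP it completes the RFX complex.

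CIITA is induced by interferon gamma through kinases bound to its receptor, among them JAK1, and through transcription factors such as IRF1. JAK1 had 39.5 and 27.8 FPKM in the HCC827 libraries and 66.3, 41.6 and 64.9 FPKM in HCC827/GR replicates 1, 2 and 3, an unadjusted p of 0.0437 and an adjusted p = 0.170. It was named after its values were seen. IRF1, which acts on the interferon-responsive promoter of CIITA, had 3.21 ± 0.367 FPKM (SD, n = 2) and 2.87 ± 0.574 FPKM (SD, n = 3) with overlapping groups.

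The endosomal proteases and chaperones that prepare class II molecules were likewise expressed. Of 17 tested genes of the class II processing and trafficking list, 1 rose and 0 fell, with a median log2 fold change of 0.16. For a list of this size, 1 call lay near the share over all entries tested, 5.26% higher and 5.71% lower. The entry that rose was named for CTSD, the aspartic protease cathepsin D, and joins 3 annotated genes. Its level went from 33.0 and 31.9 FPKM in the HCC827 libraries to 58.7, 64.4 and 56.0 FPKM in HCC827/GR replicates 1, 2 and 3. By limma this was a log2 fold change of 0.86 with a standard error of 0.10 and an adjusted p = 0.0137, a call held in 12 of 23 alternatives (adjusted p from 0.0129 to 0.350). It was lost without HCC827 replicate 2 (0.0692), HCC827 replicate 3 (0.0678) or HCC827/GR replicate 1 (0.0611). CTSS, the cathepsin that trims the invariant chain in antigen-presenting cells, had 4.44 ± 0.551 FPKM (SD, n = 2) and 4.21 ± 2.70 FPKM (SD, n = 3). IFI30, a lysosomal thiol reductase, had 17.5 ± 0.414 and 17.2 ± 0.894 FPKM, and the groups of both genes overlapped. The IFI30 entry also joins 3 annotated genes, so neither its level nor that of the CTSD entry belongs to a single gene.

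**Figure D3:**
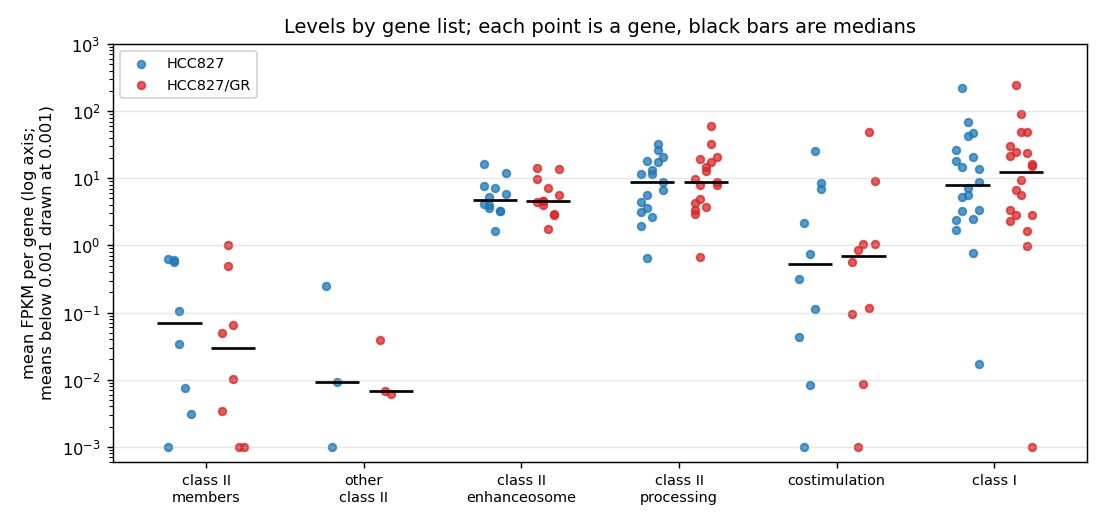
Mean FPKM (log axis) of each gene with an entry, by gene list, in HCC827 (blue) and HCC827/GR cells (red). Black bars are medians over genes and means below 0.001 are drawn at 0.001. The median of the class II members was 0.0697 FPKM in HCC827 and 0.0296 FPKM in HCC827/GR cells, against 4.69 and 4.65 FPKM for the promoter-binding and chromatin partners and 8.05 and 12.5 FPKM for class I presentation.

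Class I presentation was measured at far higher levels than class II in the same libraries. Of 19 tested genes of that list, 2 rose and 0 fell in HCC827/GR cells, and the list's median log2 fold change was 0.19. Beside this, 5.26% of all entries tested were called higher and 5.71% lower. The HLA-B entry, named for a class I heavy chain, joins 2 annotated genes. It had 16.5 and 13.1 FPKM in the HCC827 libraries and 25.4, 22.5 and 27.1 FPKM in HCC827/GR replicates 1, 2 and 3. By limma it rose by 0.73 on the log2 scale with a standard error of 0.14 and an adjusted p = 0.0443, a call held in 5 of 23 alternatives (adjusted p from 0.0417 to 0.410). ERAP1, the peptidase that trims class I peptides, also rose by 0.73 with a standard error of 0.11 and an adjusted p = 0.0240, a call held in 10 of 23 alternatives. Both calls were lost whichever library was left out, with an adjusted p from 0.0826 to 0.136 for HLA-B and from 0.0515 to 0.106 for ERAP1. Whether class I and class II genes differed in their change was not tested.

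**Figure D4:**
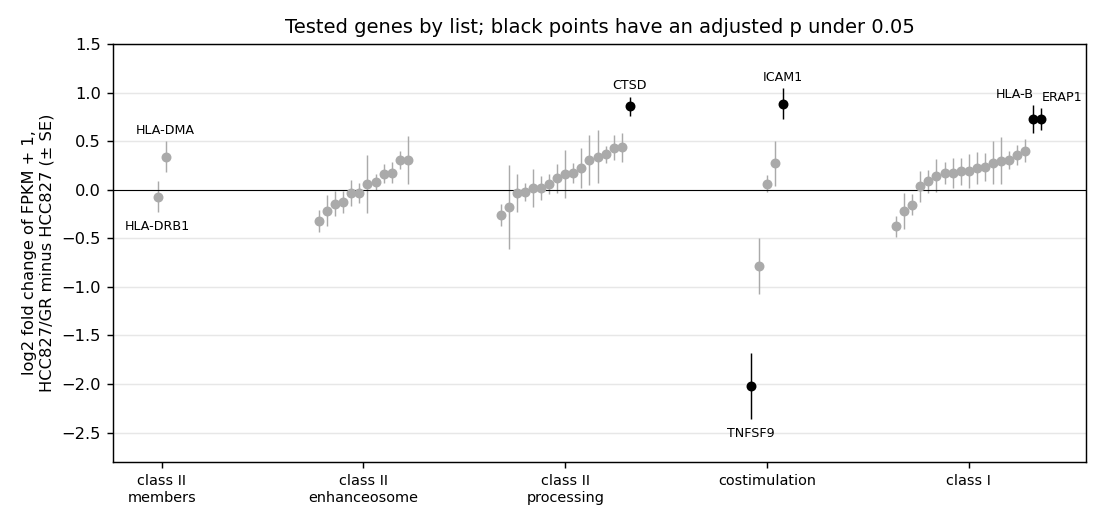
Log2 fold change of FPKM + 1 (HCC827/GR minus HCC827, with standard errors from limma) of the tested genes in each list. Black points had an adjusted p under 0.05, and grey points did not. Both class II members tested are grey, with 0.34 for HLA-DMA and -0.07 for HLA-DRB1.

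Markers of cells that express class II constitutively were examined beside the members. Of 14 haematopoietic and antigen-presenting cell markers, 11 had an entry, and their summed level was from 2.11 to 2.29 FPKM in the HCC827 libraries and from 0.767 to 1.10 FPKM in the HCC827/GR libraries. The pan-leukocyte gene PTPRC stayed at or below 0.0228 FPKM, the B cell gene MS4A1 was listed at 0 in 4 libraries and the myeloid factor SPI1 also in 4. Most of the summed difference lay in CD79A, a B cell receptor subunit, with 1.08 and 1.03 FPKM in HCC827 against 0.147, 0.0245 and 0.0573 FPKM in HCC827/GR replicates 1, 2 and 3, and in CSF1R, with 0.641 ± 0.0305 and 0.279 ± 0.0317 FPKM. These entries lay under the filter, and their part in the values of HLA-DRA was not tested.

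Of 12 markers of type II alveolar cells, 9 had an entry, with a summed level from 7.13 to 7.95 FPKM in HCC827 and from 7.95 to 8.70 FPKM in HCC827/GR cells. Of 5 surfactant protein genes, SFTPA1, SFTPC and SFTPD stayed below 0.1 FPKM in all libraries. SFTPA2 had 0.281 and 0.0860 FPKM in the HCC827 libraries and was listed at 0 in all 3 of HCC827/GR. SFTPB had 0.139 and 0.118 FPKM in HCC827 against 0.0625, 0.0808 and 0.0284 FPKM in HCC827/GR replicates 1, 2 and 3. Both lay under the filter and were lower in every HCC827/GR library, as were 18.7% of all entries above 0. SFTPC and SFTPD had higher means in HCC827/GR than in HCC827 cells. Of the 3 markers tested, ABCA3, a lipid transporter of surfactant bodies, rose by 1.18 on the log2 scale with a standard error of 0.085 and an adjusted p = 0.00521 from limma. LAMP3 was also higher in every HCC827/GR library, with means of 0.444 FPKM in HCC827 and 0.667 FPKM in HCC827/GR cells. Its adjusted p was 0.410 from limma, and it was named after its values were seen. NKX2-1, the lung lineage transcription factor, fell by 1.64 with an adjusted p = 0.0115 from limma, from 4.60 and 4.0 FPKM to 0.963, 0.762 and 0.415 FPKM in HCC827/GR replicates 1, 2 and 3. Its entry joins 3 annotated genes. The call of NKX2-1 was lost without HCC827 replicate 2 (adjusted p = 0.0798) or 3 (0.0633). Markers of lung epithelial tumour cells summed to 1073 and 1192 FPKM in the HCC827 libraries and to between 446.9 and 577.4 FPKM in the HCC827/GR libraries. Of these 6 tested markers, 0 rose and 5 fell, where 5.26% of all entries tested rose and 5.71% fell. The number that fell was 1 without HCC827 replicate 2, 2 without HCC827 replicate 3, 3 without HCC827/GR replicate 1, and 0 with the Ballgown covariate or the replicate block. The part of these shifts in the class II values was not tested.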

How the data were processed

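RNA sequencing of 3 HCC827/GR and 2 HCC827 libraries was examined through the gene-level FPKM values that the authors deposited, made with Cutadapt, Bowtie2, TopHat2, StringTie and Ballgown. Versions are not given in the sources used here. The submitters' processing notes name hg18, whereas the transcript identifiers in the table match GENCODE release 29 (GRCh38), from which all gene positions were taken. The labels describe a small-RNA library, which the paper's methods do not. A total of 1 FPKM column matched no sample and was left out.

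The main test was limma 3.58.1 in R 4.3.3 (lmFit, eBayes with a trend) on log2(FPKM + 1) of the entries whose mean reached 0.5 FPKM, tested on simulated data beforehand. Python 3.11.15 with numpy 2.4.6, pandas 2.3.3 and matplotlib 3.10.9 served the other steps. Where a symbol had several entries (2304 symbols), the one with the highest mean FPKM was used. In all, 1495 entries joined several annotated genes, and each is named here by its symbol in the deposited table. Named were all members, the nearest profiles to the member of highest mean, and list genes with an adjusted p under 0.05, with exceptions stated. For CIITA no profile was sought, since it had no entry. Some genes of the lists, and the counts over the interferon gamma list, are not reported here. The members and lists were chosen with earlier results of these data known. The letters of the X core, its distance to the Y box and the level windows were set after the sequences and values were seen.

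Each test was repeated with a smaller pseudocount (0.1), without the filter, with a stricter filter (mean FPKM of 1 or more), after scaling by median ratios or by quantiles, on coding genes alone brought to equal totals, without limma's trend, with the library-size term of Ballgown, with a replicate block, after adding up entries that share a symbol, with the study's own cutoffs on fold and p, and with each library left out. Added after the data were seen were a filter at a mean of 0.1 FPKM, the smaller pseudocount without the filter, and the block and the left-out libraries without the filter.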

Additional observations from a re-analysis of the deposited data

How the results depend on the processing

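No class II member was called under 18 alternatives for each direction, but 6 of the 8 members could be called only where the filter was dropped or lowered, and with no filter HLA-DRA had an adjusted p of 0.0208 or 0.0408 without HCC827 replicate 2 or 3, where 1 HCC827 library remained and only HCC827/GR gave the spread. HLA-DRB1 turned from -0.07 to 0.0103 without HCC827/GR replicate 2, and ran from -0.14 to 0.0103 over the left-out libraries, with no call in any. With a pseudocount of 0.1 the log2 fold change of HLA-DMA was 0.70, and with no filter as well that of HLA-DRA was -2.26. The replicate numbers share no stated origin, and the deviations of same-numbered libraries correlated at 0.0328 and 0.0147. With the replicate block, HLA-DMA had a log2 fold change of 0.38 and HLA-DRB1 of -0.14, and 0 members were called. HCC827/GR replicate 1 has no HCC827 partner, so the block estimates are those without that library. The block is thus no separate check, and with so few libraries it can call little. Of 337 comparisons of single genes with an alternative, 93 lost a call and 5 gained one. Among genes of the main test, 1 comparison changed sign. Sign changes of genes under the filter were not counted, such as CD74, whose log2 fold change ran from -0.25 to 0.04. Of 340 counts over the other lists, 70 moved, either by more than 1.5 times or to or from 0. The causes were not tested. Unknown depth limits every value under 0.1 FPKM.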

Other observations

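T cell help also needs costimulatory and adhesion molecules on the presenting cell, and these were measured in the same libraries. Of 10 genes in that list, 5 reached the mean of 0.5 FPKM, of which 1 rose and 1 fell by limma. The shares called over all entries tested were 5.26% higher and 5.71% lower. ICAM1, the adhesion ligand of LFA-1 on T cells, had 23.5 and 28.2 FPKM in the HCC827 libraries and 44.7, 45.0 and 56.6 FPKM in HCC827/GR replicates 1, 2 and 3, which limma fitted as a log2 fold change of 0.89 with a standard error of 0.16 and an adjusted p = 0.0341. It was called in 8 of 23 alternatives and lost whichever library was left out (adjusted p from 0.0629 to 0.146). TNFSF9, the 4-1BB ligand, had 7.33 and 6.44 FPKM in HCC827 and 1.87, 0.902 and 0.345 FPKM in HCC827/GR replicates 1, 2 and 3, fitted as a log2 fold change of -2.02 with a standard error of 0.34 and an adjusted p = 0.0306. It was called in 9 of 23 alternatives and lost without HCC827 replicate 2 (0.156), HCC827 replicate 3 (0.130) or HCC827/GR replicate 2 (0.0942). Of the classical ligands of CD28, CD86 was listed at 0 in all 5 libraries, which may be a failed estimate, and CD80 had 0.0430 ± 0.00509 FPKM (SD, n = 2) in HCC827 and 0.0950 ± 0.0473 FPKM (SD, n = 3) in HCC827/GR cells. CD40 stayed at or below 0.0166 FPKM.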
